A study of Mus musculus with 36 samples.

Results

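Cytochrome P450 (P450) enzymes oxidize drugs, steroids and fatty acids in hepatocytes, and their genes lie in clusters of related copies along the chromosomes. Phenobarbital (PB) activates the constitutive androstane receptor (CAR), which pairs with the retinoid X receptor on DNA and is best known in liver for inducing Cyp2b and Cyp2c genes. Several mouse P450 genes are also expressed mainly in the liver of 1 sex. The regions described here are DNase I hypersensitive sites (DHSs), stretches where the enzyme DNase I cuts because the chromatin is open, and they were taken by their position. A DHS was included when its midpoint fell in 1 of 6 windows of mm10 around P450 clusters, which gave 632 of 98170 DHSs (0.644%). The Cyp2a-2b-2f window on chromosome 7 (2 Mb) held 172 DHSs, the Cyp2c window on chromosome 19 (2 Mb) 173, the Cyp3a window on chromosome 5 (1.4 Mb) 89, the Cyp2d window on chromosome 15 (1 Mb) 104, the Cyp4 window on chromosome 4 (1.2 Mb) 77, and the Cyp2j window on the same chromosome (0.8 Mb) 17. Within each window, the stretch from the start of the first P450 gene to the end of the last is called the core, and the rest is flank. The cores held 328 DHSs and the flanks 304.

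The mice were male, with 4 vehicle-treated and 5 PB-treated animals of each strain. C57BL/6 mice were 9 to 11 weeks old at the start, and B6C3F1 mice, a cross of C57BL/6 mothers with C3H/He fathers, were 4 to 5 weeks old. PB was given in drinking water at 0.05% (wt/vol) for 91 d, and vehicle-treated mice received water without it for the same time. The DNase-seq and RNA-seq samples of liver carry the same 18 animal numbers, and strain cannot be told apart from supplier, age and study. Mice are numbered within their group, and values are always listed for vehicle-treated mice 1, 2, 3 and 5 and then for PB-treated mice 1 to 5. The accessibility of a DHS is given in normalized counts, which are reads times 1 factor per mouse. Reads in DHSs ranged from 7.01 to 24.4 M and 14.5 to 25.7 M in vehicle- and PB-treated B6C3F1 mice and from 21.4 to 58.1 M and 19.4 to 44.6 M (mega) in C57BL/6 mice. A single read was worth 0.425 to 3.69 normalized counts, the most in vehicle-treated B6C3F1 mouse 3, and 1 read was the lowest value in the table and may stand for no reads. RNA is given in CPM, the reads of a gene scaled by library size, from 27.2 to 30.3 M and 27.0 to 29.7 M reads in genes in vehicle- and PB-treated B6C3F1 mice and 24.4 to 27.6 M and 23.8 to 27.8 M in C57BL/6 mice.

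PB opened chromatin in the Cyp2a-2b-2f and Cyp2c windows of both strains, and no DHS passed the test in the Cyp3a, Cyp2d, Cyp4 and Cyp2j windows. A DHS is called more or less accessible when its log2 fold change (FC) is at least 0.58 in size and its FDR, the Benjamini-Hochberg adjusted p of limma over all 98170 DHSs, is at most 0.01. Each log2 FC is given with ± its standard error (SE) and compares PB with vehicle, and where 2 are given the first is that of B6C3F1 mice. In B6C3F1 mice 29 of the 632 DHSs were called more accessible after PB, against 0.169% of all DHSs, and in C57BL/6 mice 33 were, against 0.329%. In both strains 24 were called, against 0.0998% of all DHSs, and in at least 1 strain 38. Less accessible calls by limma and by edgeR's quasi-likelihood test numbered 0 in B6C3F1 mice (all DHSs, 0.0214% by limma and 0.0469% by edgeR). In C57BL/6 mice they numbered 1 (all DHSs, 0.0377% by limma and 0.0428% by edgeR). At an unadjusted p under 0.05, limma put 93 of the 632 above vehicle in B6C3F1 mice (14.7%, all DHSs 4.78%) and 57 below (9.02%, all DHSs 4.39%), and in C57BL/6 mice 78 above (12.3%, all DHSs 4.13%) and 19 below (3.01%, all DHSs 3.62%). The windows held 17.5% and 10.2% of all DHSs that opened in B6C3F1 and C57BL/6 mice. Every PB-treated mouse lay above every vehicle-treated mouse at 54 DHSs in B6C3F1 mice (all DHSs, 1.89%), at 59 in C57BL/6 mice (1.74%) and at 39 in both strains (0.407%). The median log2 FC of the 632 was 0.00 in B6C3F1 and 0.03 in C57BL/6 mice, beside -0.01 and -0.00 over all DHSs. The B6C3F1 count moved with single animals and was 19 without PB-treated mouse 1 and 18 without PB-treated mouse 3 or 4. In C57BL/6 mice it was 28 to 33 when each mouse was left out.

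The openings divided unevenly among the clusters. The Cyp2c window held 21 and 26 of the called DHSs in B6C3F1 and C57BL/6 mice, 28 in either strain, and the Cyp2a-2b-2f window 8 and 7, 10 in either. All but 1 of the 38 lay in a core, and the exception, at the Cyp2c55 promoter, has its centre upstream of the first Cyp2c gene. By annotation, 6 of the 38 were promoters (up to 1000 bp upstream of a transcription start site, TSS), 2 overlapped exons, 18 introns and 12 lay between genes, while the 632 held 100, 25, 258 and 249 of these. Summed over the Cyp2a-2b-2f window, PB-treated mice held 1.10 times the vehicle level in B6C3F1 and 1.07 times in C57BL/6 mice, with no overlap between the groups. The Cyp2c window sum was 1.07 times vehicle in B6C3F1 mice, where the groups overlapped, and 1.13 times in C57BL/6 mice, where they did not. The ratios of the Cyp3a window were 0.986 and 1.02, those of the Cyp2d window 1.05 and 0.985, those of the Cyp4 window 0.882 and 0.995, and those of the Cyp2j window 0.982 and 1.01, all with overlapping groups. Without vehicle-treated mouse 1 the Cyp2c count in B6C3F1 mice was 13, as it was without PB-treated mouse 1, and without PB-treated mouse 3 or 4 it was 12. With a replicate block (mouse number as a term), the B6C3F1 counts were 4 in the Cyp2a-2b-2f and 11 in the Cyp2c window. Of the 26 Cyp2c DHSs called in C57BL/6 mice, 17 have no near-identical copy elsewhere in the genome.

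Around Cyp2b10, the classic CAR target that oxidizes many drugs, the opened chromatin ran from DHS 25868340 upstream to DHS 25904146 inside the gene (DHSs are named here by their first base in mm10). The largest rise in the window was at chr7:25891833-25892442, in an intron of the predicted gene Gm51461, with its centre at -5520 bp from the Cyp2b10 TSS. DHS 25891833 held 58.1, 75.5, 81.2 and 62.2 normalized counts in vehicle-treated and 955, 760.5, 1058, 955 and 861 in PB-treated B6C3F1 mice. Its values in C57BL/6 mice were 72.5, 43.4, 70.1 and 70.9 after vehicle and 544, 713, 573, 584 and 619.6 after PB. All PB-treated mice of both strains exceeded every vehicle-treated mouse several-fold, and the log2 FC was 3.71 ± 0.15 [FDR = 1.12e-11] in B6C3F1 and 3.24 ± 0.15 [FDR = 3.52e-13] in C57BL/6 mice. The promoter DHS at chr7:25897346-25897814 spans the Cyp2b10 TSS, with its centre at -78 bp. It counted 205, 256, 218 and 206 after vehicle and 1366, 1204, 1586, 1468 and 1461 after PB in B6C3F1 mice. For C57BL/6 mice the counts were 204, 183, 161 and 251 against 1274, 1360.2, 1214, 1126 and 1149. The promoter thus stood at an intermediate level in vehicle-treated mice and higher, without overlap, in every PB-treated mouse, with log2 FC 2.67 ± 0.11 [FDR = 1.16e-11] and 2.63 ± 0.11 [FDR = 1.10e-13].

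Farther upstream, chr7:25887730-25888432 (-9577 bp) was already open in vehicle-treated mice. Its counts were 381, 414, 417 and 402 in vehicle-treated and 1232, 800.2, 1199, 1067 and 1348 in PB-treated B6C3F1 mice. C57BL/6 mice gave 399, 395, 292 and 297 against 782, 972, 695, 814 and 906. PB-treated animals lay above vehicle-treated ones without overlap, and accessibility rose with log2 FC 1.46 ± 0.12 [FDR = 5.19e-06] and 1.27 ± 0.11 [FDR = 3.87e-07]. The outermost called site, chr7:25868340-25868544 (-29216 bp), was small and has 1 near-identical copy elsewhere in the genome, which leaves its reads uncertain. B6C3F1 mice counted 17.9, 14.0, 29.5 and 29.7 after vehicle and 128, 122, 121, 142 and 77.9 after PB there. Counts in C57BL/6 mice were 11.4, 10.7, 14.4 and 35.5 against 48.7, 36.4, 43.6, 58.9 and 55.7, with vehicle-treated mouse 5 the highest of its group and just below the lowest PB-treated mouse. The log2 FC was 2.36 ± 0.28 [FDR = 1.77e-04] and 1.54 ± 0.30 [FDR = 0.00942]. The C57BL/6 call was lost without vehicle-treated mouse 1 (FDR = 0.0489), 2 (0.0591) or 3 (0.0407), without PB-treated mouse 1 (0.0330), 2 (0.0149), 3 (0.0153), 4 (0.0292) or 5 (0.0366), and also with quantile normalization (0.0109), median centring (0.0110) or all 4 groups in the fit (0.0117).

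The opening along Cyp2b10 was not even. Between the outer and the promoter DHS, 25869909 passed the test in C57BL/6 mice (log2 FC 1.17 ± 0.19 [FDR = 8.81e-04], 0.56 in B6C3F1), 25889271 and 25893221 passed it in B6C3F1 mice (0.82 ± 0.11 [FDR = 0.00118] and 1.05 ± 0.16 [FDR = 0.00277]), and in C57BL/6 mice the same 2 had log2 FC 0.49 and 0.58 with FDR of 0.00898 and 0.00527, under the size limit of 0.58 before rounding. The DHS at chr7:25895169-25895599, -2274 bp from the TSS, is named here after its values were seen and was picked by its distance to the TSS. This DHS sits between the 2 strongest sites and holds a DR5 motif match described below. It counted 543, 484, 701 and 492 against 793, 782, 921, 724 and 924 in vehicle- and PB-treated B6C3F1 mice. C57BL/6 mice counted 511, 491, 482 and 559 against 705, 686, 584, 725 and 643. PB-treated mice were the higher ones without overlap in both strains, yet the test was not passed (log2 FC 0.59 ± 0.12 [FDR = 0.0234] and 0.39 ± 0.09 [FDR = 0.0415]). Inside the gene, DHS 25904146 in an intron was called in C57BL/6 mice (0.90 ± 0.18 [FDR = 0.00764]; 0.60 in B6C3F1), and the 3 DHSs beyond it, from 25916085 to 25919785, had log2 FC of -0.27, -0.64 and -0.53 in B6C3F1 and -0.27, -0.10 and -0.23 in C57BL/6 mice, none of them called. Upstream of the outer DHS, 4 sites from 25847944 to 25864085 were above vehicle without overlap in C57BL/6 mice and were not called. Summed over the 18 DHSs nearest the Cyp2b10 gene body, PB-treated mice held 2.11 times the vehicle level in B6C3F1 and 1.84 times in C57BL/6 mice, without overlap. The longest run of neighbouring DHSs called in either strain in this window held 6 DHSs over 25.1 kb.

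Outside Cyp2b10, 2 DHSs of the chromosome 7 window opened. The one at chr7:26060590-26060989 lies in the promoter region of Cyp2b13, a Cyp2b enzyme of female liver, and is uncertain because of 1 near-identical copy. It counted 17.9, 15.8, 36.9 and 20.3 after vehicle and 116.4, 99.8, 87.2, 79.5 and 65.5 after PB in B6C3F1 mice. C57BL/6 counts were 11.4, 31.3, 29.7 and 31.8 against 85.7, 89.5, 64.3, 103 and 109. Vehicle-treated mice of both strains were low, PB-treated mice were higher without overlap, and the log2 FC was 1.98 ± 0.29 [FDR = 0.00159] and 1.84 ± 0.26 [FDR = 2.77e-04]. In B6C3F1 mice the FDR was 0.0104 without PB-treated mouse 1 and 0.01003 without PB-treated mouse 3, just over the limit, and 0.0183 with a replicate block (mouse number as a term). The promoter of Cyp2f2, which activates naphthalene and is a periportal gene in liver, was called in B6C3F1 mice only (chr7:27119633-27120093). Its counts there were 515, 427, 354 and 423 against 665, 663, 779, 700.4 and 698. C57BL/6 mice held 644, 716, 709 and 657 against 685, 673, 720.2, 747 and 599, with overlapping groups. The log2 FC was 0.71 ± 0.12 [FDR = 0.00435] in B6C3F1 and 0.00 ± 0.09 [FDR = 0.997] in C57BL/6 mice. The difference between the strains was 0.71 ± 0.14 [FDR = 0.612], the smallest interaction FDR of the 632 DHSs and not a call. The B6C3F1 call was lost without vehicle-treated mouse 2 (FDR = 0.0171), 3 (0.0102) or 5 (0.0150) and without PB-treated mouse 1 (0.0124), 2 (0.0120), 3 (0.0254) or 4 (0.0182), and with the replicate block (0.0630). At the promoter of Cyp2a5, which hydroxylates coumarin and nicotine, chr7:26835154-26835514 counted 221, 184, 229 and 238 against 259, 261, 376, 421 and 313 in B6C3F1 mice. It held 271, 254, 294 and 308 against 440.3, 423, 357, 367 and 406 in C57BL/6 mice. The groups did not overlap in either strain, but log2 FC of 0.56 ± 0.16 [FDR = 0.185] and 0.50 ± 0.11 [FDR = 0.0201] did not pass, and this DHS also has 1 copy.

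The RNA of 6 of the 9 tested P450 genes of this window rose in B6C3F1 mice and of 5 in C57BL/6 mice. Over all windows 16 of 47 tested P450 genes rose in B6C3F1 mice, against 1.55% of the 13838 genes tested, and 14 in C57BL/6 mice, against 0.845%. In B6C3F1 mice 6 fell (all genes, 0.448%), and in C57BL/6 mice limma called 0 lower (all genes, 0.0289%), as did edgeR. Cyp2b10 RNA in B6C3F1 mice was 16.7, 8.36, 16.4 and 5.51 CPM after vehicle and 1662, 1179, 1737, 1381 and 1634 CPM after PB. The same RNA in C57BL/6 mice was 7.92, 8.35, 7.53 and 11.1 CPM after vehicle and 897, 1489, 1063, 1196 and 1323 CPM after PB. All PB-treated mice of both strains lay far above every vehicle-treated mouse, with log2 FC 7.13 ± 0.28 [FDR = 4.66e-10] and 7.07 ± 0.28 [FDR = 6.72e-10]. Cyp2b13 was close to absent in vehicle-treated mice, with 0.237, 0.0672, 0.317 and 0 CPM against 52.1, 94.2, 52.3, 61.8 and 46.0 CPM after PB in B6C3F1 mice. C57BL/6 mice showed 0.321, 0.531, 0.402 and 0.861 against 119, 78.9, 116.3, 72.0 and 58.0 CPM. The groups lay far apart, and log2 FC on the log2(CPM + 0.1) scale was 8.07 ± 0.39 [FDR = 2.62e-09] and 7.16 ± 0.39 [FDR = 1.55e-08]. Cyp2b9, another Cyp2b enzyme of female liver, varied among vehicle-treated B6C3F1 mice at 12.1, 5.24, 31.4 and 2.83 CPM and reached 93.2, 167, 89.9, 109.5 and 101 CPM after PB. Its C57BL/6 values were 16.4, 20.4, 10.1 and 16.7 against 193, 185, 213, 146 and 143 CPM. PB-treated mice were all higher, and the RNA rose (3.63 ± 0.50 [FDR = 3.05e-04] and 3.49 ± 0.50 [FDR = 7.83e-04]), but with 1 strain in the fit the FDR was 0.0264 in B6C3F1 mice, and with the replicate block 0.0268 and 0.0567.

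Cyp2a5 had the most P450 RNA of the Cyp2a-2b-2f window by mean over all mice, but not in every group. After vehicle, Cyp2f2 averaged 687 CPM in B6C3F1 and 727 CPM in C57BL/6 mice, against 310 and 533 CPM for Cyp2a5. In PB-treated B6C3F1 mice, Cyp2b10 averaged 1519 CPM against 1272 CPM for Cyp2a5. Cyp2a5 went from 341, 368, 233 and 296 CPM to 1422, 939, 1506, 1445 and 1048 CPM in B6C3F1 mice. The C57BL/6 values were 482, 463, 649 and 538 against 1685, 1876, 1654, 1797 and 2241 CPM. The groups were separate, and Cyp2a5 rose with log2 FC 2.03 ± 0.16 [FDR = 8.34e-07] and 1.799 ± 0.16 [FDR = 5.35e-06], although no DHS nearest its gene body was called. Cyp2a4, a steroid hydroxylase of female liver and a near copy of Cyp2a5, had 1.05, 1.61, 2.92 and 1.04 against 3.96, 2.36, 3.31, 3.25 and 2.59 CPM in B6C3F1 mice, where vehicle-treated mouse 3 overlapped the PB-treated mice. Cyp2a4 had 1.93, 2.05, 1.69 and 1.56 against 4.27, 4.99, 5.01, 4.60 and 5.11 CPM in C57BL/6 mice, without overlap. It rose in both strains (0.96 ± 0.22 [FDR = 0.00654] and 1.36 ± 0.22 [FDR = 4.17e-04]), but in B6C3F1 mice the FDR was 0.0317, 0.0136 and 0.0307 without vehicle-treated mouse 1, 2 or 5, 0.0229, 0.0185 and 0.0160 without PB-treated mouse 1, 3 or 4, 0.0155 with edgeR, 0.0584 with 1 strain in the fit and 0.0324 with the replicate block. Cyp2g1, an enzyme best known from olfactory mucosa, was at 0.779, 0.235, 0.352 and 0.447 against 1.55, 1.27, 1.26, 1.52 and 2.20 CPM in B6C3F1 mice. C57BL/6 mice had 0.535, 0.0379, 0.241 and 0.274 against 0.841, 0.359, 0.676, 0.663 and 1.12 CPM. Both groups were low, and the RNA rose in B6C3F1 mice (1.65 ± 0.37 [FDR = 0.00551]) while C57BL/6 mice, whose groups overlapped, did not pass (1.29 ± 0.37 [FDR = 0.0680]). That B6C3F1 call was lost without vehicle-treated mouse 2 (FDR = 0.0252), 3 (0.0168) or 5 (0.0129) and without PB-treated mouse 1 (0.0141), 3 (0.01004), 4 (0.0122) or 5 (0.0150). The authors kept only RNA reads that map to 1 place, so reads matching more than 1 of several near-identical genes were not counted, and the levels of Cyp2a4 and Cyp2a5, and of Cyp2b9 and Cyp2b13, are uncertain to that extent.

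In the Cyp2c window, whose enzymes turn arachidonic acid and drugs over, the opening formed 1 stretch across Cyp2c55, Cyp2c65, Cyp2c66, Cyp2c53-ps and Cyp2c29. It ran over 327 kb, from 39006626 to 39333140, and no DHS was called more accessible in the next 669 kb. Of its 34 DHSs, 21 were called in B6C3F1 and 24 in C57BL/6 mice, 19 in both and 26 in either, and 33 had a positive log2 FC in both strains. The median log2 FC was 1.496 in B6C3F1 and 1.36 in C57BL/6 mice. Summed over the stretch, B6C3F1 mice held 4667, 5224, 3904 and 4359 normalized counts after vehicle and 9825, 8279, 10036, 8957 and 9467 after PB. The sums in C57BL/6 mice were 4510.4, 4502, 3643 and 4039 against 7766, 8724, 7279, 7657 and 8561. PB-treated mice were the higher ones without overlap, at 2.05 and 1.92 times the vehicle mean. Along the stretch the ratio was 2.05 and 1.68 for the 2 DHSs nearest Cyp2c65, 2.83 and 2.18 for the 5 nearest Cyp2c66, 2.74 and 2.29 for the 14 nearest the pseudogene Cyp2c53-ps, and 1.51 and 1.63 for the 11 nearest Cyp2c29, none with overlap. The 1 DHS of the core nearest Cyp2c55 had ratios of 1.67 and 1.34, with overlapping groups in both strains, and was not called. The longest run of adjacent DHSs called in either strain held 8, over 13.6 kb in the introns of Cyp2c53-ps, and 7 of the 8 have near-identical copies. The longest run in which PB-treated mice lay above vehicle-treated mice in both strains held 13, over 57.8 kb from 39212465 to 39270229.

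At the left end of the stretch, the Cyp2c55 promoter at chr19:39006626-39007120, which overlaps the start of the gene, counted 133, 169, 111 and 146 after vehicle and 447, 388, 393, 317 and 397 after PB in B6C3F1 mice. C57BL/6 mice gave 153, 159, 136 and 103 against 232, 414, 308, 361 and 376. The groups did not overlap, and the promoter opened with log2 FC 1.48 ± 0.16 [FDR = 5.54e-05] and 1.28 ± 0.16 [FDR = 5.22e-05]. The 5 strongest sites of the window lay in Cyp2c66 and Cyp2c53-ps and were near closed in vehicle-treated mice. In an exon of Cyp2c66, chr19:39176281-39176970 counted 38.0, 21.1, 7.38 and 24.3 against 491, 265, 444, 295 and 266 in vehicle- and PB-treated B6C3F1 mice. The same exon counted 17.9, 24.9, 17.4 and 20.8 against 128, 187, 120.0, 169.9 and 175 in C57BL/6 mice. No vehicle-treated mouse came near a PB-treated one, and log2 FC was 4.04 ± 0.38 [FDR = 3.61e-04] and 2.88 ± 0.20 [FDR = 2.97e-09]. In an intron of the same gene, chr19:39169858-39170228 held 16.9, 12.3, 29.5 and 13.5 against 116.4, 95.7, 149, 92.4 and 127 in B6C3F1 mice. C57BL/6 mice held 13.5, 22.8, 18.3 and 20.8 against 85.7, 152, 108, 115.9 and 128 at this site. Both strains opened it from low counts (2.68 ± 0.28 [FDR = 5.54e-05] and 2.58 ± 0.22 [FDR = 9.38e-08]). Nearby, chr19:39174598-39174777 counted 20.1, 24.6, 3.69 and 16.2 against 159, 119, 195, 124 and 145.203 in B6C3F1 mice, where vehicle-treated mouse 3 stood at the lowest value. Its C57BL/6 counts were 28.7, 12.8, 17.4 and 15.9 against 78.3, 101, 79.8, 101 and 77.8. It opened without overlap in both (3.35 ± 0.40 [FDR = 7.08e-04] and 2.22 ± 0.23 [FDR = 3.04e-06]), but in B6C3F1 mice it did not pass with the replicate block (FDR = 0.0182).

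Another intron of Cyp2c66 held chr19:39178017-39178293, with 23.2, 1.76, 3.69 and 12.2 against 165, 86.2, 201, 101 and 95.6 in vehicle- and PB-treated B6C3F1 mice. It held 5.95, 8.54, 10.2 and 15.9 against 52.9, 49.5, 20.1, 51.1 and 77.8 in C57BL/6 mice. Vehicle-treated B6C3F1 mice 2 and 3 stood at 1 read, and PB-treated mice were higher without overlap in both strains (3.95 ± 0.54 [FDR = 0.00487] and 2.16 ± 0.35 [FDR = 9.48e-04]). The B6C3F1 call was lost without vehicle-treated mouse 3 (FDR = 0.0585) or 5 (0.0130), without PB-treated mouse 1 (0.0133), 3 (0.0110) or 4 (0.0114) and with a pseudocount of 0.1 (0.0129), and the C57BL/6 call with all 4 groups in the fit (0.0667). In Cyp2c53-ps, chr19:39257464-39257581 counted 15.8, 1.76, 3.69 and 12.2 against 50.1, 46.5, 63.4, 64.6 and 86.8 in B6C3F1 mice. C57BL/6 mice counted 11.4, 9.25, 12.3 and 1.22 against 62.5, 66.8, 33.9, 72.7 and 76.5 there. PB-treated mice were again higher without overlap (3.08 ± 0.48 [FDR = 0.00291] and 2.97 ± 0.46 [FDR = 0.00309]), but vehicle counts reached down to 1 read, and this DHS has 921 near-identical copies in the genome, so its reads are uncertain. Its FDR in B6C3F1 mice was 0.0108, 0.0180 and 0.0154 without PB-treated mouse 1, 3 or 4, and in C57BL/6 mice 0.0240 without vehicle-treated mouse 2, 0.0125 and 0.0144 without PB-treated mouse 1 or 5 and 0.0398 with a pseudocount of 0.1. The replicate block gave 0.0157 and 0.0909.

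Promoters within the stretch differed from each other. That of Cyp2c53-ps, chr19:39228954-39229440, counted 131, 153, 103 and 96.004 against 391, 365, 392, 417 and 462 in vehicle- and PB-treated B6C3F1 mice. For C57BL/6 mice the values were 149, 136, 119 and 114.9 against 369, 362, 292, 289.8 and 354. It opened without overlap (1.76 ± 0.16 [FDR = 7.38e-06] and 1.35 ± 0.13 [FDR = 6.46e-07]). The promoter of Cyp2c29, an abundant liver enzyme of arachidonic acid and drug metabolism, was open at the start: chr19:39286788-39287252 counted 674, 688, 686 and 689.6 against 758, 837, 853, 893 and 933 in B6C3F1 mice. C57BL/6 mice had 703, 728, 542 and 713 against 759, 877, 868, 722 and 829.6 at it. PB-treated mice were higher without overlap in B6C3F1 mice and overlapped in C57BL/6 mice, and neither passed (0.32 ± 0.09 [FDR = 0.178] and 0.28 ± 0.10 [FDR = 0.325]). In the 34 DHSs, those called in neither strain were 39027603, 39057916, 39212039, 39229675, 39282816, 39285619, 39286788 and 39289071, and the last, in a Cyp2c29 intron, had the only negative log2 FC (-0.28 in B6C3F1 mice). To the left, the nearest upstream DHS of Cyp2c55, 39005137, had log2 FC of 0.17 and 0.15. To the right of the last called site at chr19:39332416-39333140 (1.36 ± 0.22 [FDR = 0.00377] and 1.82 ± 0.17 [FDR = 3.64e-07]), the next DHSs were at the Cyp2c39 promoter and lay below vehicle.

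All genes of the stretch had higher RNA after PB in both strains. Cyp2c55 was at 23.5, 26.2, 26.3 and 18.6 CPM after vehicle and 501, 417, 583, 463 and 442 CPM after PB in B6C3F1 mice. C57BL/6 mice showed 14.0, 17.4, 23.3 and 14.7 CPM after vehicle and 243, 449, 243, 332 and 415 CPM after PB. The groups were far apart (4.34 ± 0.20 [FDR = 2.43e-09] and 4.25 ± 0.20 [FDR = 4.29e-09]). Cyp2c66 gave 1 read in total over the 4 vehicle-treated mice of each strain, at 0.0339, 0, 0 and 0 CPM in B6C3F1 mice against 33.0, 24.5, 30.8, 23.8 and 26.3 CPM after PB. Its C57BL/6 values were 0.0357, 0, 0 and 0 CPM against 7.08, 11.8, 7.04, 15.9 and 15.9 CPM. No fold change is given for it, and the FDR was 2.51e-16 in B6C3F1 and 1.22e-14 in C57BL/6 mice, with every PB-treated mouse above every vehicle-treated one. Cyp2c65 had at most 3 reads in any vehicle-treated mouse, with 0.0678, 0.0336, 0.0352 and 0.0372 CPM and 2.98, 1.12, 3.24, 2.38 and 2.16 CPM after PB in B6C3F1 mice. The C57BL/6 values were 0, 0.0379, 0.0805 and 0.117 against 1.02, 2.95, 1.23, 2.49 and 2.53 CPM. It rose in both (4.04 ± 0.34 [FDR = 3.20e-08] and 3.70 ± 0.34 [FDR = 1.76e-07]). Cyp2c53-ps, a pseudogene, was at 7.05, 12.0, 6.69 and 6.88 CPM after vehicle and 174, 139, 178, 139 and 165 CPM after PB in B6C3F1 mice. C57BL/6 mice had 5.92, 6.18, 7.49 and 8.53 CPM after vehicle and 118, 142, 121, 140.1 and 157 CPM after PB. It rose by a similar amount in each strain (4.30 ± 0.16 [FDR = 5.23e-11] and 4.26 ± 0.16 [FDR = 1.05e-10]). Cyp2c29 was the most abundant P450 RNA of the window, at 2769, 2756, 2533 and 2160.1 CPM after vehicle and 7184, 7612, 7258, 7659.8 and 8907 CPM after PB in B6C3F1 mice. Cyp2c29 in C57BL/6 mice read 1751, 1747, 2051 and 1949 CPM after vehicle and 6554, 7080.5, 6274, 5464 and 6198 CPM after PB. It rose without overlap (1.60 ± 0.08 [FDR = 2.70e-11] and 1.75 ± 0.08 [FDR = 6.56e-12]).

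The stretch was drawn to begin and end at DHSs called more accessible, before the first gap of over 200 kb between them, so the number of calls and the median inside and outside it are not independent of its boundary. Of the other 48 DHSs of the Cyp2c core, 2 were called more accessible, both in C57BL/6 mice only, and the median log2 FC was -0.42 and 0.13. The only DHS of the 632 called less accessible was chr19:39647461-39647923, in an intron of Cyp2c67. It counted 479, 521, 417 and 476 after vehicle and 330.3, 346, 316, 238 and 246 after PB in C57BL/6 mice. B6C3F1 mice counted 676, 655, 723 and 906 against 219.6, 435, 341, 325 and 496. Vehicle-treated mice were higher without overlap in both strains, and accessibility fell in C57BL/6 mice (-0.69 ± 0.12 [FDR = 0.00237]), while the B6C3F1 value had the larger size and a wider error (-1.07 ± 0.19 [FDR = 0.0232]). The C57BL/6 call was lost without vehicle-treated mouse 1 (FDR = 0.0124), 2 (0.0217) or 5 (0.0122), without PB-treated mouse 5 (0.0110) and with all 4 groups in the fit (0.138). In B6C3F1 mice it became a call without PB-treated mouse 1 (0.00938) or 5 (0.00204), with sample quality weights (0.00424) and with all 4 groups in the fit (0.00118).

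Promoters of Cyp2c39, Cyp2c38, Cyp2c67, Cyp2c40 and Cyp2c69 had a negative log2 FC in B6C3F1 mice without passing the test. At the promoter of Cyp2c39, a retinoic acid hydroxylase, chr19:39346993-39347433 counted 232, 274, 133 and 170.4 against 102, 111, 108, 123 and 113 in vehicle- and PB-treated B6C3F1 mice. C57BL/6 mice counted 333, 473, 348 and 556 against 339.8, 212, 304, 222 and 314. PB-treated B6C3F1 mice were all lower, the C57BL/6 groups overlapped, and log2 FC was -0.80 ± 0.20 [FDR = 0.0847] and -0.61 ± 0.17 [FDR = 0.202]. The Cyp2c38 promoter at chr19:39462979-39463376 counted 324, 446, 520.3 and 530.0 against 211, 380.2, 162, 254 and 251 in B6C3F1 mice, overlapping at PB-treated mouse 2, and did not pass (-0.88 ± 0.21 [FDR = 0.0865]; -0.08 in C57BL/6 mice). The Cyp2c67 promoter at chr19:39648768-39649337 held 1078, 1027, 897 and 748 against 567, 774, 534, 533 and 753 in B6C3F1 mice, overlapping at PB-treated mice 2 and 5, and did not pass either (-0.57 ± 0.14 [FDR = 0.0719]; -0.03 in C57BL/6 mice). Promoters of Cyp2c40 (39812606) and Cyp2c69 (39886706), with near-identical copies and few reads, had log2 FC of -0.67 and -0.49 in B6C3F1 and 0.12 and 0.17 in C57BL/6 mice. Summed DHS counts after PB were 0.721 times vehicle around Cyp2c39, 0.679 around Cyp2c67, 0.605 around Cyp2c68, 0.563 around Cyp2c40 and 0.585 around Cyp2c69 in B6C3F1 mice, where only the Cyp2c67 groups did not overlap. In C57BL/6 mice these ratios were 0.944, 0.907, 1.08, 1.04 and 1.00, all with overlap.

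RNA of Cyp2c39, Cyp2c38, Cyp2c67, Cyp2c40 and Cyp2c69 was lower after PB in B6C3F1 mice, while Cyp2c68, with overlapping groups in both strains, did not pass (-0.92 ± 0.21 [FDR = 0.0107]; -0.26 ± 0.21 [FDR = 0.712] in C57BL/6 mice). Cyp2c39 was at 53.2, 55.9, 78.4 and 60.3 CPM after vehicle and 8.95, 25.2, 6.51, 10.2 and 31.6 CPM after PB in B6C3F1 mice. C57BL/6 mice started low, at 3.53, 2.35, 2.25 and 2.23 CPM, and had 3.99, 2.73, 4.10, 1.48 and 2.53 CPM after PB. Cyp2c39 fell in B6C3F1 mice without overlap (-2.16 ± 0.42 [FDR = 0.00451]; 0.13 in C57BL/6 mice). Cyp2c38, an enzyme of arachidonic acid read from the opposite strand inside the Cyp2c39 gene, was at 54.2, 63.6, 99.6 and 82.2 CPM after vehicle and 13.7, 37.4, 11.0, 16.4 and 37.1 CPM after PB in B6C3F1 mice and fell (-1.84 ± 0.37 [FDR = 0.00510]; -0.07 in C57BL/6 mice). Cyp2c67 had 544, 556, 294 and 518 CPM after vehicle and 121, 208, 105, 136 and 323 CPM after PB in B6C3F1 mice, with vehicle-treated mouse 3 below PB-treated mouse 5. Cyp2c67 in C57BL/6 mice was at 267, 225, 238 and 257 against 162, 159, 152, 105 and 146.7 CPM. It fell in B6C3F1 mice (-1.50 ± 0.29 [FDR = 0.00403]), and the separate C57BL/6 groups did not pass (-0.78 ± 0.29 [FDR = 0.243]). Cyp2c40, a female-predominant enzyme, had 1.32, 2.02, 0.775 and 2.01 against 0.0755, 0.300, 0.144, 0.207 and 0.432 CPM in B6C3F1 mice and fell (-2.31 ± 0.32 [FDR = 3.96e-05]), and with 1.46, 1.21, 1.61 and 1.60 against 0.526, 0.611, 1.07, 0.546 and 0.415 CPM in C57BL/6 mice the separate groups did not pass (-1.15 ± 0.32 [FDR = 0.0576]), though with 1 strain in the fit they did (0.00973). The near copy Cyp2c69, under 1 CPM in every mouse, fell in B6C3F1 mice (-1.98 ± 0.38 [FDR = 0.00139]) but with a pseudocount of 1 did not (FDR = 0.0106). Because only reads mapping to 1 place were kept, levels of Cyp2c39, Cyp2c67, Cyp2c68, Cyp2c40 and Cyp2c69 are uncertain where they share sequence with related genes.

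Part of these calls depended on single animals. The 6 P450 genes called lower in B6C3F1 mice were Cyp2c39, Cyp2c38, Cyp2c67, Cyp2c40, Cyp2c69 and Cyp2d40, and their number was 3 without vehicle-treated mouse 2 or 5 or PB-treated mouse 1 or 4, 2 without PB-treated mouse 3 and 2 with 1 strain in the fit. The FDR of Cyp2c39 went over 0.01 without vehicle-treated mouse 1 (0.0105), 2 (0.0114), 3 (0.0155) or 5 (0.0132) and without PB-treated mouse 1 (0.0139), 3 (0.010001) or 4 (0.0125). That of Cyp2c38 did so without vehicle-treated mouse 2 (0.0116), 3 (0.0183) or 5 (0.0170) and without PB-treated mouse 1 (0.0158), 3 (0.0128) or 4 (0.0139). Cyp2c67 lost its call without vehicle-treated mouse 1 (0.0149), 2 (0.0151) or 5 (0.0145) and without PB-treated mouse 1 (0.0125), 3 (0.0105) or 4 (0.0113). Cyp2d40 fell short of the size limit without vehicle-treated mouse 3 (-0.53) or PB-treated mouse 3 (-0.57). Cyp2c40 and Cyp2c69 kept their calls whichever 1 mouse was left out, though the FDR of Cyp2c69 reached 0.00747 in this way and was 0.0112 with the replicate block. With 1 strain in the fit the FDR was 0.0591 for Cyp2c39, 0.0648 for Cyp2c38, 0.0746 for Cyp2c67 and 0.0335 for Cyp2d40. With the replicate block it was 0.0422 for Cyp2c39, 0.0662 for Cyp2c38 and 0.0584 for Cyp2d40. The strains were not shown to differ: the interaction was -2.29 ± 0.60 [FDR = 0.351] for Cyp2c39, -1.77 ± 0.52 [FDR = 0.391] for Cyp2c38, -0.72 ± 0.41 [FDR = 0.701] for Cyp2c67 and -1.16 ± 0.45 [FDR = 0.519] for Cyp2c40.

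At the right end of the Cyp2c core, Cyp2c37, Cyp2c54 and Cyp2c50, further enzymes of arachidonic acid, had 2 called DHSs among them, both in C57BL/6 mice only. Summed DHS counts after PB were 1.14 times vehicle around Cyp2c37, 1.39 around Cyp2c54 and 1.31 around Cyp2c50 in B6C3F1 mice, with overlap around Cyp2c37 only. In C57BL/6 mice the ratios were 1.34, 1.32 and 1.37, with overlap around Cyp2c54 only. The Cyp2c50 promoter at chr19:40089460-40089853 was the last called DHS, with 343, 332, 304 and 344 after vehicle and 589.6, 578, 523, 527 and 656 after PB in C57BL/6 mice. In B6C3F1 mice it held 271, 337, 328 and 256 against 395, 419.9, 396, 344 and 535. PB-treated mice were higher without overlap in both strains, and the promoter opened in C57BL/6 mice (0.79 ± 0.10 [FDR = 2.68e-05]) but did not pass in B6C3F1 mice (0.48 ± 0.14 [FDR = 0.205]), with an interaction of -0.31 ± 0.17 [FDR = 0.907]. A Cyp2c37 exon at chr19:40001776-40001984 with 1 near-identical copy was likewise called in C57BL/6 mice (1.36 ± 0.24 [FDR = 0.00293]), beside a larger and less certain value in B6C3F1 mice (2.07 ± 0.43 [FDR = 0.0263]). The Cyp2c37 promoter (39992195) counted 321, 423, 365 and 423 against 505, 546, 569, 501 and 458 in C57BL/6 mice, without overlap, and its log2 FC of 0.32 ± 0.17 [FDR = 0.589] in B6C3F1 and 0.43 ± 0.10 [FDR = 0.0495] in C57BL/6 mice did not pass. The Cyp2c54 promoter (40073661) did not pass either (0.47 ± 0.12 [FDR = 0.112] and 0.45 ± 0.11 [FDR = 0.0596]), with separate groups in B6C3F1 and overlapping groups in C57BL/6 mice. RNA of all 3 rose in both strains. Cyp2c50 was at 805, 764, 564 and 722 CPM after vehicle and 3314, 2854, 3688, 3287 and 3191 CPM after PB in B6C3F1 mice. C57BL/6 mice held 1022.3, 798, 1011 and 980.0 CPM after vehicle and 3089, 3612, 3019, 3408 and 3642 CPM after PB. The rise was without overlap (2.20 ± 0.10 [FDR = 3.60e-11] and 1.82 ± 0.10 [FDR = 6.72e-10]). Cyp2c37 showed 215, 249, 124 and 173 CPM after vehicle and 1415, 1361, 1483, 1493 and 1504 CPM after PB in B6C3F1 mice and also rose without overlap (2.98 ± 0.16 [FDR = 5.75e-09]; 2.06 ± 0.16 [FDR = 7.65e-07] in C57BL/6 mice). Cyp2c54 had 363, 363, 204 and 309 CPM after vehicle and 2045, 1743, 2317, 1937 and 1981 CPM after PB in B6C3F1 mice and rose alike (2.73 ± 0.15 [FDR = 8.45e-09]; 2.17 ± 0.15 [FDR = 2.12e-07] in C57BL/6 mice).

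In the Cyp3a, Cyp2d, Cyp4 and Cyp2j windows limma and edgeR each called 0 DHSs in either strain. At an unadjusted p under 0.05, limma put 7, 12, 2 and 0 of their DHSs above and 10, 2, 11 and 0 below vehicle in B6C3F1 mice, and 3, 2, 2 and 0 above and 0, 9, 0 and 0 below in C57BL/6 mice. In the same order of windows, those above or below made up 19.1%, 13.5%, 16.9% and 0% in B6C3F1 mice (all DHSs, 9.16%) and 3.37%, 10.6%, 2.6% and 0% in C57BL/6 mice (all DHSs, 7.76%). Cyp3a11, the main drug-oxidizing P450 of its family in mouse liver, had the highest RNA of its window, at 4898, 5704, 6212 and 4565 CPM after vehicle and 12973, 9787, 13914, 10799.7 and 11687 CPM after PB in B6C3F1 mice. C57BL/6 mice read 4895, 4374, 5661 and 4427 CPM after vehicle and 9487, 9572, 6989, 9831 and 9929.8 CPM after PB. Cyp3a11 rose without overlap (1.15 ± 0.12 [FDR = 8.59e-06] and 0.92 ± 0.12 [FDR = 1.83e-04]), though the C57BL/6 call was lost with the replicate block (FDR = 0.0185). Its promoter at chr5:145879762-145880065 counted 137, 167, 365 and 264 after vehicle and 393, 343, 482, 345 and 441 after PB in B6C3F1 mice. The C57BL/6 counts were 201, 184, 289.6 and 287 against 242, 318, 312, 329 and 379. The groups overlapped in both strains, in B6C3F1 mice through vehicle-treated mouse 3, and log2 FC was 0.87 ± 0.24 [FDR = 0.184] and 0.41 ± 0.15 [FDR = 0.382]. Without vehicle-treated mouse 3 the B6C3F1 value was 1.12 with FDR = 0.00609, which is a call. The smallest p of the Cyp3a window in C57BL/6 mice was in a Cyp3a11 intron (145861538), with log2 FC 0.94 ± 0.33 [FDR = 0.339] and 0.78 ± 0.21 [FDR = 0.0937], and in B6C3F1 mice it was between genes nearest Cyp3a41b (145642263, 1 copy), with -0.86 ± 0.22 [FDR = 0.104] and -0.02 ± 0.18 [FDR = 0.992].

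In the Cyp2d window, the DHS with the smallest p in B6C3F1 mice was chr15:82401568-82402022, nearest Cyp2d10. It counted 164, 161, 185 and 242 against 252, 272, 285, 298 and 328 in vehicle- and PB-treated B6C3F1 mice, separate groups that did not pass (0.62 ± 0.16 [FDR = 0.0914]; 0.13 in C57BL/6 mice). In C57BL/6 mice it was chr15:82433018-82433170, upstream of Cyp2d9 and with 18 near-identical copies, at 28.1, 24.9, 57.8 and 31.8 against 70.9, 65.1, 59.2, 87.4 and 89.4. These groups were also separate, the highest vehicle-treated animal being mouse 3, and log2 FC was 1.10 ± 0.23 [FDR = 0.0174] with 0.48 in B6C3F1 mice. It became a call without vehicle-treated mouse 3 (FDR = 0.00227) and with sample quality weights (0.00448). Cyp2d9, a steroid hydroxylase of male liver and the most abundant P450 RNA there, had 1485, 1352, 1194 and 1515 CPM after vehicle and 1854, 1638, 1903, 1863 and 1895 CPM after PB in B6C3F1 mice. C57BL/6 mice had 1145, 1085, 1261 and 1337 against 1226, 1408, 1268, 1433 and 1479 CPM. It stayed under the size limit of a call (0.40 ± 0.08 [FDR = 0.00116] and 0.18 ± 0.08 [FDR = 0.314]). Cyp2d12, close to absent after vehicle, was at 0.407, 0.437, 0 and 0.223 against 19.6, 6.82, 16.7, 15.0 and 6.66 CPM in B6C3F1 mice. Cyp2d12 stood at 0.357, 0.417, 0.563 and 0.665 against 1.05, 2.80, 1.91, 6.28 and 5.61 CPM in C57BL/6 mice. The groups were separate in both, and it rose in B6C3F1 mice (5.27 ± 0.56 [FDR = 1.39e-05]) but did not pass in C57BL/6 mice (2.35 ± 0.56 [FDR = 0.0327]), where it passed without PB-treated mouse 1 (0.00913). Cyp2d40 had 61.4, 61.2, 88.9 and 66.1 against 42.8, 55.6, 35.3, 46.5 and 40.4 CPM in B6C3F1 mice and fell (-0.65 ± 0.12 [FDR = 0.00136]; -0.39 in C57BL/6 mice), with -0.53 without vehicle-treated mouse 3 and -0.57 without PB-treated mouse 3, both under the size limit. Its open promoter (82763608) showed log2 FC of -0.06 and -0.20.

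In the Cyp4 window, whose enzymes hydroxylate fatty acids, DHS 115268202 near Cyp4a29 counted 18.4, 23.5, 14.9 and 23.2 against 52.9, 49.5, 55.7, 26.5 and 53.1 in C57BL/6 mice. The groups were separate, with PB-treated mouse 4 the lowest of its group, and log2 FC was 1.19 ± 0.27 [FDR = 0.0298] and 0.85 in B6C3F1 mice. Without PB-treated mouse 4 it passed (FDR = 0.00423), as it did with sample quality weights (0.00815) and the replicate block (0.00761). Upstream of Cyp4a14, a fatty acid hydroxylase, chr4:115497409-115497915 held 433, 588, 513 and 422 against 308, 440.4, 213, 244 and 354 in B6C3F1 mice, overlapping at PB-treated mouse 2, and did not pass (-0.68 ± 0.18 [FDR = 0.141]; 0.08 in C57BL/6 mice). The ratio of window sums was lowest here, 0.882 in B6C3F1 mice, and the median log2 FC was -0.18 in B6C3F1 and 0.02 in C57BL/6 mice. Cyp4a12a, a fatty acid hydroxylase of male liver, had the most P450 RNA, with log2 FC 0.06 ± 0.16 [FDR = 0.881] and 0.42 ± 0.16 [FDR = 0.252]. None of the 17 DHSs of the Cyp2j window, which holds epoxygenase genes, had an unadjusted p under 0.05. The site upstream of Cyp2j5 at chr4:96664904-96665415 counted 1187, 1179.5, 1126 and 1189 against 1219, 1319.9, 1345, 1314 and 1156 in B6C3F1 mice. It counted 1431, 1384, 1219.7 and 1385 against 1321, 1391, 1377, 1319 and 1272 in C57BL/6 mice. The groups overlapped (0.12 ± 0.08 [FDR = 0.684] and -0.02 ± 0.07 [FDR = 0.983]), and the other named DHS, 96787367, had 0.56 and -0.18. Cyp2j5 RNA was at 1184, 1172, 1206 and 1108 against 983, 1103, 944, 1034.6 and 1060.3 CPM in B6C3F1 mice, separate groups with a small difference that was not a call (-0.19 ± 0.05 [FDR = 0.0179]; -0.05 in C57BL/6 mice).

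The strains were compared directly. For the response to PB, the interaction called 0 of the 632 DHSs and 0 of the 47 P450 genes (all DHSs and all genes, 0.0% and 0.0%), with limma and with edgeR, and 57 of the DHSs had an unadjusted limma p under 0.05 (9.02%, all DHSs 5.39%). A call in 1 strain is thus not shown to be a difference between strains. In vehicle-treated mice, 49 DHSs were more accessible in B6C3F1 than in C57BL/6 mice (all DHSs, 6.14%) and 21 less (4.34%), 70 in all. By window, more and less accessible DHSs numbered 21 and 6 for Cyp2a-2b-2f, 11 and 8 for Cyp2c, 2 and 2 for Cyp3a, 5 and 1 for Cyp2d, 9 and 2 for Cyp4 and 1 and 2 for Cyp2j. The total of 70 was 33 without C57BL/6 vehicle-treated mouse 1, 32 without mouse 2 of that group and 44 without B6C3F1 vehicle-treated mouse 1.

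The smallest FDR for strain belonged to a run of 10 adjacent DHSs around Cyp2a22, from 26876775 to 26963208 on chromosome 7 (86.4 kb). All 9 C57BL/6 mice stood at the lowest value of the table, given as 1 read and possibly standing for none, at each of the 10, and B6C3F1 mice had 16 to 505 reads with a median of 183. At the Cyp2a22 promoter, chr7:26939258-26939609, B6C3F1 mice counted 474, 398, 399 and 476 after vehicle and 448, 476, 401, 448 and 407 after PB. C57BL/6 mice counted 0.541, 0.712, 0.425 and 1.22 against 1.06, 0.597, 0.574, 0.982 and 1.30 there, the lowest value of each mouse. PB did not move it in B6C3F1 mice beyond the spread (log2 FC 0.00 ± 0.12 [FDR = 0.999]). The DHSs at 26962220, 26952762, 26878570 and 26917074 shared this pattern, with 372, 532, 365 and 465 normalized counts in vehicle-treated B6C3F1 mice at the first. FDR for strain was 2.69e-10 at the promoter, 2.69e-10, 3.29e-10, 3.73e-10 and 1.11e-09 at the other 4, all higher in 4 of 4 vehicle-treated B6C3F1 mice, and no fold change is given against values of 1 read. Of the 98170 DHSs, 13 were at 1 read in every C57BL/6 mouse and 3 in every B6C3F1 mouse. Of the 10, 5 have a near-identical copy in the genome. Cyp2a22 RNA, named here after its values were seen, was 4.27, 5.24, 10.5 and 5.88 against 7.10, 12.7, 6.44, 7.94 and 4.75 CPM in vehicle- and PB-treated B6C3F1 mice. C57BL/6 mice had 0.464, 0.531, 0.282 and 0.274 against 0.456, 0.467, 0.637, 0.429 and 0.540 CPM. Every B6C3F1 mouse was above every C57BL/6 mouse, and the strain difference in RNA was not tested.

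Taking RNA and DHSs of the P450 genes side by side, 22 genes were called in RNA in at least 1 strain, 14 of them higher in both. Over all genes tested, 1.55% were called higher in B6C3F1 and 0.845% in C57BL/6 mice, so at most 0.845% were higher in both. Lower calls made up 0.448% and 0.0289% of all genes. Of the 22, 15 had a DHS with its centre within 500 bp of the TSS, and 4 of these were called, at Cyp2b10, Cyp2c55, Cyp2c53-ps and Cyp2c50. A called DHS was nearest the gene body in 9 of the 22. Cyp2b13, Cyp2b9, Cyp2a4, Cyp2g1, Cyp2c65, Cyp2c66 and Cyp2d12 had no DHS with its centre that close to the TSS. For Cyp2b13, DHS 26060590 in its promoter region was called in both strains, but its centre lay beyond 500 bp. The other 55 tested genes of the windows were called in 0 cases by limma in either strain. With such small shares of all genes called, 0 of 55 does not set these genes apart. The median log2 FC of the 47 P450 genes was 0.34 in B6C3F1 and 0.13 in C57BL/6 mice, beside -0.01 and -0.01 over all genes tested. For Cyp2b10 the log2 FC was 7.13 and 7.07 in RNA (pseudocount 0.1) and 2.67 and 2.63 at its promoter (pseudocount 1).

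Near-identical copies limit some of the DHS values. Among the 632, the DHSs with at least 1 other match in the genome of at least 95% identity over at least 80% of their length numbered 42 in the Cyp2a-2b-2f, 29 in the Cyp2c, 22 in the Cyp3a, 15 in the Cyp2d, 7 in the Cyp4 and 0 in the Cyp2j window. Of the 38 opened DHSs 12 had such a match, and their values are uncertain. Among the opened, the most matches were at 39331589 (2856), 39257464 (921) and 39332416 (412), all in the Cyp2c stretch. DHSs 25891833, 25897346 and 25887730 of Cyp2b10 had none.

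Short motifs were counted on both strands in the 300 bp around the centre of each DHS. The direct repeat DR3 (AGNTCANNNAGNTCA) was in 2.63%, against 0.189% of all DHSs, DR4 (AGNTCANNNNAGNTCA), the spacing best known for CAR, in 2.63%, against 0.244%, and DR5 (AGNTCANNNNNAGNTCA) in 2.63%, against 0.216%, where the first share is that of the 38 opened DHSs. Each of these 2.63% shares is 1 DHS. Among the 353 opened DHSs outside the windows, DR3 was in 0.567%, DR4 in 4.82% and DR5 in 0.283%. The FOXA motif TGTTTAC was in 10.5%, against 7.40%, the C/EBP motif TTGCNNAA in 13.2%, against 18.9%, the HNF4 motif CAAAGTCCA in 5.26%, against 1.85% and the NF1 motif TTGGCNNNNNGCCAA in 0%, against 0.106%. Over the 632 DHSs the shares were 8.70% for FOXA, 19.9% for C/EBP, 2.37% for HNF4 and 1.27% for any of the 3 direct repeats. Any direct repeat was in 2 of the 38, namely 39095371 (DR3 and DR4) upstream of Cyp2c66 and the Cyp2c50 promoter 40089460 (DR5), and the first of these, outside the rule for naming DHSs, rose with log2 FC 2.75 ± 0.26 [FDR = 1.02e-05] and 2.33 ± 0.21 [FDR = 2.52e-07]. Only exact matches were counted, so a repeat or site that departs from its pattern by a base is missed. A match is a description, not a site or a cause.

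Sequences are shown for the 2 DHSs each with the largest average log2 FC in the Cyp2a-2b-2f and Cyp2c windows and for the only DHS called less accessible. The Cyp2b10 DHS 25895169, picked by its distance to the TSS, is shown too. All are on the plus strand of mm10 (RefSeq GRCm38.p6), up to 300 bases around the centre, in lower case with exact motif matches in capitals. The Cyp2b10 upstream DHS 25891833 is chr7:25891987-25892286, without a match. The promoter DHS 25897346 is chr7:25897430-25897657, ending before the TSS, with a C/EBP match from 25897600. The exon DHS 39176281 of Cyp2c66 is chr19:39176475-39176774, with an HNF4 match from 39176539, and the intron DHS 39178017 of the same gene is chr19:39178017-39178293, without a match. The less accessible DHS 39647461 in a Cyp2c67 intron is chr19:39647542-39647841, with a FOXA match from 39647625. The Cyp2b10 DHS 25895169 between genes is chr7:25895234-25895533, with a DR5 match on the minus strand from 25895396. DR4 and NF1 had no exact match in DHS 25895169, and near matches, which were not searched, are not marked in any sequence.
Cyp2b10 upstream DHS 25891833: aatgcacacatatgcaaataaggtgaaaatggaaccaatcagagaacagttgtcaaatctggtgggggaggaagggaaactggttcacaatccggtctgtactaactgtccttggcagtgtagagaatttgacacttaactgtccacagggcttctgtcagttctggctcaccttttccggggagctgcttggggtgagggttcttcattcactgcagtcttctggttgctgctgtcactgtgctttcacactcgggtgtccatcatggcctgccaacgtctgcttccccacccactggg
Cyp2b10 promoter DHS 25897346: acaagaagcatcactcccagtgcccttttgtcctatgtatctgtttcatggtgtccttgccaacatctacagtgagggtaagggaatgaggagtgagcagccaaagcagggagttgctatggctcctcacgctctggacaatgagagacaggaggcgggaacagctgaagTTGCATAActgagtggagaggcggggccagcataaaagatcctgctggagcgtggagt
Cyp2c66 exon DHS 39176281: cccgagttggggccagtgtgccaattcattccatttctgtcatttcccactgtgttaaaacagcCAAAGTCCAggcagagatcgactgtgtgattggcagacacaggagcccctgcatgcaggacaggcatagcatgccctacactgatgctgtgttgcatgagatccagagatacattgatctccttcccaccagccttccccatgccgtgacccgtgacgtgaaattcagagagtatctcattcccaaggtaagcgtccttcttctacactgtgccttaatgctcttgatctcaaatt
Cyp2c66 intron DHS 39178017: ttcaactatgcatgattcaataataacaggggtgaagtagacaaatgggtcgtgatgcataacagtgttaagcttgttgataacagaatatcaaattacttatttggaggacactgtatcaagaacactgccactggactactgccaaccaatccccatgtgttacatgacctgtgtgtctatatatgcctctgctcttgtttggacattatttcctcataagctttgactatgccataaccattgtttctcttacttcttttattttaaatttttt
Cyp2c67 intron DHS 39647461: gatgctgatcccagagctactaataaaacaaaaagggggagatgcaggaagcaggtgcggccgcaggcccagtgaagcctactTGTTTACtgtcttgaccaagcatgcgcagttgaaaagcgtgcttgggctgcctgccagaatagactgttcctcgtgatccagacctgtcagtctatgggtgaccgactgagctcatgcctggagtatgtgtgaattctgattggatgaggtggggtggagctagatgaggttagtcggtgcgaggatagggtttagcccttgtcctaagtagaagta
Cyp2b10 DHS 25895169: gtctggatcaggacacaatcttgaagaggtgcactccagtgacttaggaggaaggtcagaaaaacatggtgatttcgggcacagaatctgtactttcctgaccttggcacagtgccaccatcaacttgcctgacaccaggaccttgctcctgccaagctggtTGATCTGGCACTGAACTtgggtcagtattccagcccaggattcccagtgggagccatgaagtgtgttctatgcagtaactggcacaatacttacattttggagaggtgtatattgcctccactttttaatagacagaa

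Genes listed for the CAR pathway, none of them in the windows, were read in RNA too. Of 24 listed and tested, 12 rose in B6C3F1 mice (all genes, 1.55%) and 15 in C57BL/6 mice (0.845%). Limma called 0 lower (all genes, 0.448% and 0.0289%), and the median log2 FC was 0.80 and 0.88, beside -0.01 and -0.01 over all genes. Por, the reductase that passes electrons to P450 enzymes, rose from 103, 118, 102 and 100.0 to 415, 261, 416, 313 and 449 CPM in B6C3F1 mice (1.79 ± 0.16 [FDR = 2.12e-06]; 1.34 ± 0.16 [FDR = 8.80e-05] in C57BL/6 mice). The conjugating enzyme Gstm3 (3.85 ± 0.34 [FDR = 3.57e-06] and 4.04 ± 0.34 [FDR = 3.76e-06]) and the export pump Abcc4 (3.02 ± 0.22 [FDR = 1.95e-07] and 3.14 ± 0.22 [FDR = 1.76e-07]) rose most in B6C3F1 mice. Cyp1a2, a P450 gene outside these clusters, rose too (1.30 ± 0.16 [FDR = 7.60e-05] and 0.91 ± 0.16 [FDR = 0.00343]), as did the carboxylesterase Ces2a (1.60 ± 0.13 [FDR = 3.22e-07] and 0.97 ± 0.13 [FDR = 1.47e-04]). Nr1i3, which encodes CAR, had 91.4, 88.1, 73.9 and 66.8 against 63.1, 71.4, 54.7, 58.3 and 60.1 CPM in B6C3F1 mice and was not called (-0.37 ± 0.09 [FDR = 0.0159]; -0.22 in C57BL/6 mice).

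Marker RNA fitted the liver label. The 4 hepatocyte markers, Alb, Apoa1, Ttr and Hnf4a, summed to 72252 to 77486 CPM after vehicle and 53258 to 69508 after PB in B6C3F1 mice. In C57BL/6 mice they summed to 56647 to 72814 CPM after vehicle and 53598 to 62544 after PB. Alb made up most of this. PB-treated B6C3F1 mice all lay below vehicle in this sum, and the C57BL/6 groups overlapped. Alb was lower without overlap in B6C3F1 mice (-0.31 ± 0.08 [FDR = 0.0178]), and Ttr without overlap in both strains (-0.32 ± 0.07 [FDR = 0.00542] and -0.24 ± 0.07 [FDR = 0.0723]). Apoa1 (0.21 ± 0.13 [FDR = 0.341]) and Hnf4a (-0.03 ± 0.07 [FDR = 0.851]) overlapped in B6C3F1 mice and did not pass. Pericentral hepatocyte markers (3 tested, Cyp2e1 the most abundant) came to 5520.0 to 8598 CPM after vehicle and 7136 to 9342 after PB in B6C3F1 mice, and periportal ones (3, Cyp2f2) to 1236 to 1398 CPM after vehicle and 1433 to 1693 after PB. Endothelial markers (3, Stab2) lay at 253 to 299.4 CPM after vehicle and 261 to 299.7 after PB in B6C3F1 mice, immune markers (4, Clec4f) at 83.12 to 111 CPM after vehicle and 88.7 to 109 after PB, biliary markers (4, Sox9) at 5.15 to 9.19 CPM after vehicle and 4.32 to 6.49 after PB and stellate markers (3, Lrat) at 29.0 to 44.8 CPM after vehicle and 18.7 to 40.1 after PB. The C57BL/6 sums were 8015 to 8944 CPM after vehicle and 8374 to 9124 after PB for pericentral, 1455 to 1634.6 CPM after vehicle and 1451 to 1718 after PB for periportal, 271 to 300.4 CPM after vehicle and 277 to 321 after PB for endothelial, 116.2 to 159 CPM after vehicle and 111 to 186 after PB for immune, 6.92 to 8.61 CPM after vehicle and 5.68 to 7.83 after PB for biliary and 31.0 to 53.5 CPM after vehicle and 32.3 to 44.5 after PB for stellate markers. Cyp2f2 was higher without overlap in B6C3F1 mice (0.33 ± 0.06 [FDR = 0.00203]; 0.01 in C57BL/6 mice), as was the periportal sum, while Hal (0.17 ± 0.08 [FDR = 0.195]) and Gls2 (-0.10 ± 0.06 [FDR = 0.383]) overlapped. Cyp2f2 itself lies in the Cyp2a-2b-2f window. Of the pericentral markers, Cyp2e1 (0.15 ± 0.12 [FDR = 0.513]) made up most of the sum and had the opposite sign to Glul (-0.31 ± 0.09 [FDR = 0.0350]) and Oat (-0.41 ± 0.14 [FDR = 0.0719]) in B6C3F1 mice, all with overlap. Limma called 0 markers of any list in either strain, and Ttr and Cyp2f2 passed the FDR limit in B6C3F1 mice but not the size limit. The part of cell composition in the DHS and RNA differences was not tested, and in whole liver fewer cells of a type and less RNA per cell cannot be told apart.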

How the data were processed

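Livers of 18 mice were analysed by DNase-seq and RNA-seq, in 4 groups taken from the sample labels (4 vehicle- and 5 PB-treated mice of each strain), and no column of per-sample values was left out. For the DNase-seq signal, the authors digested nuclei of frozen liver with DNase I and sequenced size-selected fragments as paired ends, and by the submitters' processing notes and the study's methods used bcl2fastq 2.17, Cutadapt 1.8, Bowtie2 2.1.0 against mm10, Picard to remove duplicates, SAMtools to drop low mapping quality, MACS2 2.1.1.20160309 for peaks in each sample and DiffBind 1.16.3 to count reads in a consensus of peaks seen in 3 samples or more. The deposited signal is a normalized count: reads multiplied by a scaling factor of that mouse. For RNA-seq the authors deposited CPM of strand-specific counts over RefSeq genes after STAR 2.4.0f1, a SAMtools filter for uniquely mapped reads and TMM scaling in edgeR 3.12.1, treated here as signal because TMM scaling lets a column sum exceed the total of a plain CPM. In each, 100.0% of values came out whole within 0.1 read.

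DHSs were tested with limma 3.58.1 in R 4.3.3 on log2(normalized count + 1) with trended, robust variance shrinkage, comparing PB with vehicle within the 9 mice of a strain, the strains with each other among 8 vehicle-treated mice, and testing the interaction over all 18. RNA was tested on log2(CPM + 0.1) with the 18 samples in 1 fit, keeping genes that reached 0.4 CPM in 3 or more samples of any group (13838 of 13862). Every log2 FC is on these scales, which understate changes of low features. Calls needed |log2 FC| of at least 0.58 and an FDR of at most 0.01 over all features. On recovered reads, edgeR 4.0.16 (quasi-likelihood) called 274 DHSs in B6C3F1 and 391 in C57BL/6 mice, and for RNA 275 and 116 genes. Both tests were also run on simulated counts with the same dispersion for every feature and no planted change in the weakest ones. That run does not show how the tests do at weak or more variable DHSs. Python 3.11.15, pandas 2.3.3, numpy 2.4.6 and BLAST+ 2.17.0 (copies with at least 95% identity over at least 80% of a DHS) were used for the rest, with genes, distances and sequence from RefSeq GRCm38.p6, the assembly of mm10. Distances run from the centre of a DHS to the nearest TSS of any RefSeq transcript, and the 500 bp rule below uses the start of the gene. A DHS belongs to the P450 gene body nearest to it, and sums around a gene take DHSs of the core only. The Cyp2c stretch ends at the first gap of over 200 kb between called DHSs.

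Named DHSs were up to 5 per window with the largest average |log2 FC| among those called, each called less accessible, those within 500 bp of the TSS of a P450 gene called in RNA, the 2 with the smallest p in either strain in windows without a call, the first and last called per window, and the 5 with the smallest FDR for strain in vehicle-treated mice. Named genes were the P450 genes called in RNA and the most abundant P450 gene of each window, by mean CPM over all mice. The members, pathway genes, markers and motifs were chosen with earlier results of these data known. The alternatives tried were other pseudocounts and filters, members by any overlap, quantile normalization, median centring, other groups in the fit, sample quality weights, a replicate block, edgeR, an FDR of 0.05, no minimum log2 FC, cores only, DHSs without copies, 200 bp for motifs and each mouse left out in turn.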

Additional observations from a re-analysis of the deposited data

Results flagged for a closer look

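Some animals stood far from the rest of their group. For each named DHS, window sum and gene, the gap between the highest or lowest mouse and its nearest neighbour was divided by the range of the group, and the ratio was compared with Dixon's critical value for groups of that size. Chance picks about 1 in 20 groups, and 23 of 284 groups (8.10%) exceeded the value.

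Among DHSs, in normalized counts, the highest mouse stood apart at DHS 25868340 in vehicle-treated C57BL/6 mouse 5 (35.5, nearest 14.4, ratio 0.848), DHS 26917074 in PB-treated B6C3F1 mouse 2 (369, nearest 292, ratio 0.735) and DHS 82433018 in PB-treated B6C3F1 mouse 4 (93.4, nearest 42.8, ratio 0.719). The lowest mouse stood apart at DHS 25891833 in vehicle-treated C57BL/6 mouse 2 (43.4, nearest 70.1, ratio 0.916), DHS 26060590 in vehicle-treated C57BL/6 mouse 1 (11.4, nearest 29.7, ratio 0.899), DHS 39286788 in vehicle-treated C57BL/6 mouse 3 (542, nearest 703, ratio 0.867), DHS 96664904 in vehicle-treated B6C3F1 mouse 3 (1126, nearest 1179.5, ratio 0.857) and DHS 115268202 in PB-treated C57BL/6 mouse 4 (26.5, nearest 49.5, ratio 0.789). Among window sums, this held for the sum of the Cyp2c window in PB-treated B6C3F1 mouse 5 (46190.4, nearest 42346, ratio 0.724) on the high side, and on the low side for the sum of the Cyp2a-2b-2f window in PB-treated B6C3F1 mouse 5 (49929, nearest 52450.3, ratio 0.717) and the sum of the Cyp2j window in vehicle-treated C57BL/6 mouse 3 (5776, nearest 6703, ratio 0.831).

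In RNA, in CPM, the highest mouse stood apart for Cyp2b9 in PB-treated B6C3F1 mouse 2 (167, nearest 109.5, ratio 0.747), Cyp2c65 in vehicle-treated B6C3F1 mouse 1 (0.0678, nearest 0.0372, ratio 0.894), Cyp2c66 in vehicle-treated B6C3F1 mouse 1 (0.0339, nearest 0, ratio 1.00), Cyp2c66 in vehicle-treated C57BL/6 mouse 1 (0.0357, nearest 0, ratio 1.00), Cyp2c53-ps in vehicle-treated B6C3F1 mouse 2 (12.0, nearest 7.05, ratio 0.933), Cyp2c29 in PB-treated B6C3F1 mouse 5 (8907, nearest 7659.8, ratio 0.724), Cyp2c39 in vehicle-treated C57BL/6 mouse 1 (3.53, nearest 2.35, ratio 0.906) and Cyp4a12a in vehicle-treated C57BL/6 mouse 5 (175, nearest 133, ratio 0.857). The lowest mouse did so for Cyp2c67 in vehicle-treated B6C3F1 mouse 3 (294, nearest 518, ratio 0.855), Cyp2c67 in PB-treated C57BL/6 mouse 4 (105, nearest 146.7, ratio 0.730), Cyp3a11 in PB-treated C57BL/6 mouse 3 (6989, nearest 9487, ratio 0.849) and Cyp2d9 in PB-treated B6C3F1 mouse 2 (1638, nearest 1854, ratio 0.813). For Cyp2c66 the values are 1 read against none.

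No member had PB-treated mice above vehicle in 1 strain and below it in the other without overlap, and the interaction called 0 of the 632 DHSs.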

How the results depend on the processing

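The number of DHSs called more accessible in C57BL/6 mice (33) stayed within 22 to 41 over all settings and within 28 to 33 when each mouse was left out, and that in B6C3F1 mice (29) within 20 to 36 over the settings without a block and within 18 to 29 when each mouse was left out. With a replicate block (mouse number as a term), to which PB-treated mouse 4 adds nothing because no vehicle-treated mouse has its number, the B6C3F1 count was 15. Less accessible DHSs in B6C3F1 mice (0) numbered 2 at an FDR of 0.05, 4 with all 4 groups in the fit, 2 with sample quality weights and 0 to 3 when each mouse was left out. In C57BL/6 mice (1) they numbered 0 with all 4 groups in the fit and 0 to 1 when each mouse was left out. In the Cyp3a, Cyp2d, Cyp4 and Cyp2j windows, calls in C57BL/6 mice (0) numbered 2 at an FDR of 0.05, 2 with quality weights, 1 with the replicate block and 0 to 1 when each mouse was left out, and in B6C3F1 mice (0) 0 to 1 when each mouse was left out. P450 genes lower in B6C3F1 mice (6) numbered 2 with 1 strain in the fit, 3 with the replicate block and 2 to 7 when each mouse was left out, and in C57BL/6 mice (0) 1 with 1 strain in the fit. P450 genes higher were 14 to 18 in B6C3F1 and 12 to 15 in C57BL/6 mice. The 70 DHSs differing by strain in vehicle-treated mice numbered 38 in the cores and 32 to 81 when each mouse was left out. The interaction called 0 in the settings it was fitted in, which were edgeR and a pseudocount of 10 for DHSs and edgeR for RNA, and it was not refitted with mice left out. The cause of these shifts was not tested.

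Of the 29 DHSs called in B6C3F1 mice 16 were called whichever mouse was left out and 14 in all 19 fits, and of the 33 in C57BL/6 mice 27 and 24, with a positive log2 FC throughout. Over the named DHSs, 1498 combinations of site and setting kept their side of the threshold, 44 lost a call and 13 gained one. For the named P450 genes these numbers were 746, 50 and 2, and no call changed sign. Mice of the same number are different animals, and their deviations from the group means correlated at r from -0.202 to 0.244, so the number does not pair them. The depth of vehicle-treated B6C3F1 mouse 3, where 1 read is worth 3.69 normalized counts, limits values at weak DHSs.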
